A study of Mus musculus with 2 samples.

Results

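The solute carriers of the Slc4, Slc5, Slc8, Slc9, Slc12, Slc13, Slc22, Slc26 and Slc34 families move bicarbonate, sodium, glucose, calcium, protons, chloride, sulfate, phosphate and organic ions across membranes, and they include many of the main transporters of the renal tubule. All genes whose symbol in the array annotation places them in these 9 families were taken, from probe sets (groups of short probes for 1 transcript) with exactly 1 gene. This gave 77 genes on 139 probe sets, of 18193 genes measured. They were followed in endothelial cells sorted from kidneys of mouse embryos (E15.5, Theiler stage 23), in 2 arrays of 1 group, called replicate 1 and replicate 2. The mice were of strain CD-1 and carried the transgene Tg(TIE2GFP)287Sato, in which the promoter of the endothelial receptor gene Tie2 (Tek) drives GFP. This promoter is known to be active also in some cells of the blood lineage. Each sample pooled the trypsin-dissociated cells of roughly 5 to 10 kidneys, sorted for GFP, and its RNA went through 2 rounds of amplification. The titles of the samples name Flk1 and their source is given as the endothelium of the main renal vessels, whereas the protocol starts from whole kidneys. Nothing in the labels says whether the pools came from separate litters, so differences between the arrays may be in part technical. The study also profiled adult and diabetic endothelium, and those samples were not analysed here.

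Tubule epithelium places different members of these families on its luminal and basal faces, and each nephron segment uses its own set. The proximal tubule recovers glucose, phosphate, bicarbonate, sulfate and dicarboxylates and secretes organic ions. The thick ascending limb and the distal convoluted tubule take up salt through cation-chloride cotransporters, and intercalated cells secrete acid or base through anion exchangers. Other members are used by nearly every cell, endothelium included, to set its pH, volume and supply of small solutes.

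The control regions of the members were looked at as well. RefSeq promoter windows (build GRCm38.p6) were matched for 62 of the 77 genes, and the 250 bases before each transcription start were read. The 5 stretches that follow were picked because they span the range of CG described later, with 3 genes of wide use first and 2 tubule genes after them. They do not stand for their roles, since CG was not summarised by role. Bases run 5′ to 3′ on the strand of the gene, and capitals mark each CG dinucleotide.
Slc5a3: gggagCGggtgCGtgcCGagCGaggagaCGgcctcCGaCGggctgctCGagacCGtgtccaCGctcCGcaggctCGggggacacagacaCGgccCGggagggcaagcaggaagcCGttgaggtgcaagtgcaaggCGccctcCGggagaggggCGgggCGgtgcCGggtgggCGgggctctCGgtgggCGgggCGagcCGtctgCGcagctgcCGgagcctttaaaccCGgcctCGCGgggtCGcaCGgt
Slc22a5: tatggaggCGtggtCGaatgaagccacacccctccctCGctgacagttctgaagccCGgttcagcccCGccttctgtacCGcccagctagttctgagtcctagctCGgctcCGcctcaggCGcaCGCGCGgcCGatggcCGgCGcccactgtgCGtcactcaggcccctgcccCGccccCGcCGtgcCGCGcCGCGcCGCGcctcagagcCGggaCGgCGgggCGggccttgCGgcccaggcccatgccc
Slc22a4: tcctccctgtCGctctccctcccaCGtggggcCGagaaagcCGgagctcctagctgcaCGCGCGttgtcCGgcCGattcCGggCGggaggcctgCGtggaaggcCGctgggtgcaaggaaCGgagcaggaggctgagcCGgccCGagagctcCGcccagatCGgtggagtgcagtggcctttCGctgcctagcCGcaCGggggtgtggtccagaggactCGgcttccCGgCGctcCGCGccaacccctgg
Slc34a1: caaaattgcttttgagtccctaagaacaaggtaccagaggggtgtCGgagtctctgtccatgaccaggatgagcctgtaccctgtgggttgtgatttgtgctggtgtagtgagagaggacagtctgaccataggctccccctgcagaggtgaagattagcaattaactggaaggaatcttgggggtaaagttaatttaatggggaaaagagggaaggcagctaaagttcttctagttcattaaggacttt
Slc12a1: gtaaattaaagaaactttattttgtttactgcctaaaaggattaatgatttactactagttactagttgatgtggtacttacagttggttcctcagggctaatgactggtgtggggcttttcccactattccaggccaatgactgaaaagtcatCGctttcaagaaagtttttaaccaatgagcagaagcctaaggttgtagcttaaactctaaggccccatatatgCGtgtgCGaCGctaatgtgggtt
The first is that of Slc5a3, which imports the osmolyte myo-inositol (chr16:92058072-92058321, plus strand), with 32 CG. Slc22a5, the carnitine transporter OCTN2 (chr11:53891704-53891953, minus strand), had 30 CG, and Slc22a4, the related ergothioneine transporter OCTN1 (chr11:54028105-54028354, minus strand), had 26. By contrast, Slc34a1, the main phosphate cotransporter of the proximal tubule (chr13:55399398-55399647, plus strand), had 1 CG, and Slc12a1, the NKCC2 cotransporter of the thick ascending limb (chr2:125152350-125152599, plus strand), had 4.

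The first question was which of these transporters the sorted cells used. A gene was called above background if its probe set with the highest mean exceeded, on both arrays, a limit taken from olfactory and other chemosensory receptors. This limit, the 95th percentile of those receptors, was an intensity of 202.5 in replicate 1 and 204.1 in replicate 2 (arbitrary units). By this rule 29 of the 77 transporters (37.7%) were above background, against 61.0% of all genes. On replicate 1 only there were 3 more (all genes 3.01%), on replicate 2 only another 3 (all genes 3.47%), and 42 were above it on neither array. All other solute carrier genes reached 169 of 257 (65.8%), above the share of all genes. The amino acid transporter families, which are among these, reached 31 of 58 (53.4%). That share lay below the 61.0% of all genes and above the 37.7% of the members. Genes with more probe sets pass more easily, since the highest of them is used, so the shares were also taken by their number. Among genes with 1 probe set 21.6% of the members (8 of 37) passed, against 44.5% of all genes, with 2 probe sets 42.9% (12 of 28) against 70.4%, and with 3 or more 75.0% (9 of 12) against 86.1%. Counted by probe set, 37 of 139 (26.6%) passed for the members, against 55.0% for all probe sets with 1 gene. With 1 group there is no contrast, so these shares carry no test. The number of cells that use a gene and the amount of its RNA in each cell cannot be told apart in bulk samples such as these.

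The gate can be judged from marker genes of the cell types. All 14 pan-endothelial markers were above background, Tek among them at 15908 and 21499 and Kdr at 8939 and 12139. All 10 macrophage markers and 9 of 10 renal stroma markers were too, against 61.0% of all genes. Of the macrophage markers, Csf1r gave 34030 and 36806. Summed, the macrophage list gave 95319 in replicate 1 and 116016 in replicate 2, and the pan-endothelial list gave 191007 and 166764. Erythroid markers reached 8 of 13 (61.5%), near the 61.0% of all genes. Early nephron and tubule markers and ureteric bud markers reached 4 of 10 each (40.0%). The tubule markers that passed were Jag1 (4577 and 5937), which endothelium also uses, the water channel Aqp1 (803.7 and 1275), also known from endothelium and red cells, the proximal tubule gene Kap (913.1 and 932.5) and Cdh6 (480.4 and 812.5). Those of the ureteric bud were Wnt11, Gata3, Krt8 and Cdh1. Summed, the tubule list gave 7370 in replicate 1 and 9605 in replicate 2, most of it from Jag1. The parts of tubule cells, macrophages and stroma cells in the transporter values were not tested. The stroma markers differed most between the arrays, with a summed intensity of 22675 in replicate 1 and 72988 in replicate 2.

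**Figure D1:**
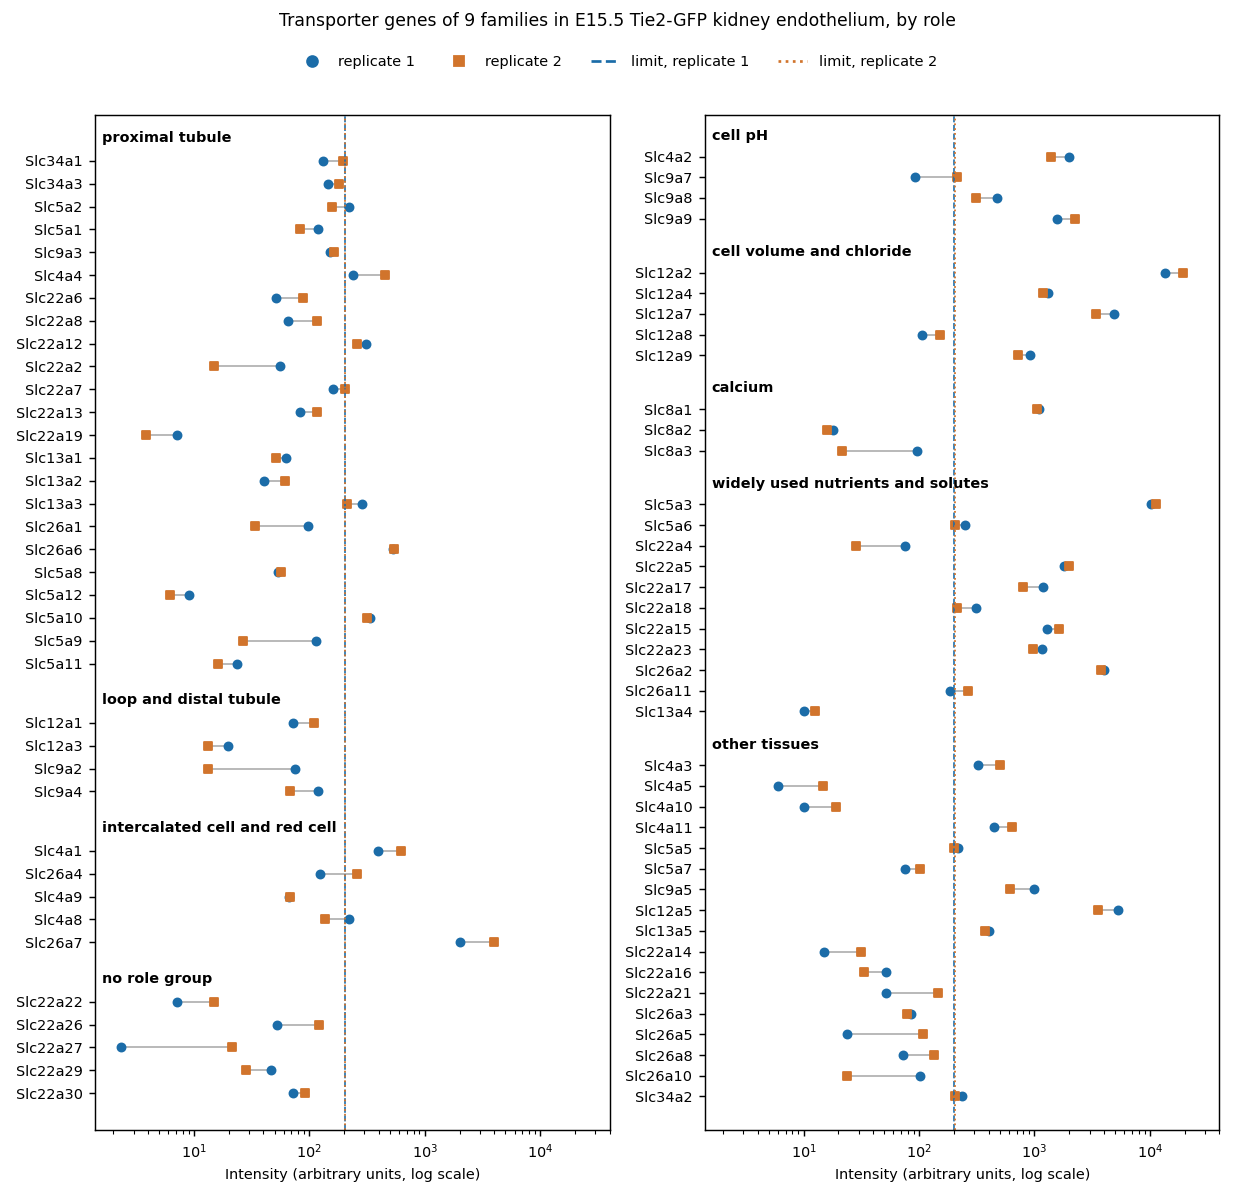
Intensity of each of the 77 transporter genes (x axis, arbitrary units, log scale) in replicate 1 (circles) and replicate 2 (squares), by role, with the background limits of 202.5 and 204.1 drawn. Proximal and distal tubule genes lie mostly left of the limits and genes of cell pH, cell volume and wide use mostly right of them; values of different genes come from different probes and are not comparable with each other.

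Transporters of the proximal tubule were for the most part not above background. Of 23 measured, 5 passed on both arrays (21.7%), against 61.0% of all genes, and 17 passed on neither. Slc34a1, the phosphate cotransporter NaPi-IIa, gave 130.4 in replicate 1 and 196.3 in replicate 2, and its relative Slc34a3 (NaPi-IIc) gave 146.0 and 181.6. The glucose cotransporter Slc5a2 (SGLT2), by which the early proximal tubule recovers glucose, gave 220.2 and 158.1 and passed on replicate 1 only. Slc5a1 (SGLT1), of gut and late proximal tubule, gave 119.9 and 83.7. Slc9a3, the luminal sodium-proton exchanger NHE3, gave 151.0 and 164.6 and so stayed under the limit. Transporters of organic ions, which clear drugs and metabolites from the blood, were under the limit as well. The organic anion transporters Slc22a6 (OAT1) and Slc22a8 (OAT3) gave 51.7 and 87.7, and 64.9 and 115.5, and the organic cation transporter Slc22a2 (OCT2) gave 56.2 and 15.0. Slc22a7 (OAT2) came closest, at 159.6 and 203.3. Also below it on both arrays were Slc22a13, Slc22a19, the sulfate carriers Slc13a1 and Slc26a1, the dicarboxylate carrier Slc13a2, the monocarboxylate carriers Slc5a8 and Slc5a12, and the sugar and inositol carriers Slc5a9 and Slc5a11. Over the 17 genes on neither array the values ran from 7.17 to 159.6 in replicate 1, with a median of 64.9, and from 3.81 to 203.3 in replicate 2, with a median of 61.8.

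The 5 proximal tubule genes that passed did so with values near the limit or on some of their probe sets, Slc26a6 and Slc5a10 apart. Slc26a6, an exchanger of chloride, oxalate and bicarbonate, gave 533.0 and 536.7 on its only probe set. Slc5a10, a sodium-sugar cotransporter, gave 337.9 and 316.8 on its only probe set. Slc4a4, the sodium-bicarbonate cotransporter NBCe1 of the basal face, gave 237.4 and 454.4, and 2 of its 5 probe sets passed. The other of these gave 354.7 and 287.2, so the probe sets of Slc4a4 order the arrays in opposite ways. The urate transporter Slc22a12 (URAT1) gave 310.3 and 260.5 on 1 probe set and 40.3 and 46.0 on the other. Slc13a3, the dicarboxylate carrier NaDC3, gave 287.3 and 213.0 on 1 of 4 probe sets, and the other 3 gave at most 116.7 in replicate 1 and 17.5 in replicate 2. The identifiers of the probe sets by which Slc22a12 and Slc13a3 passed carry a suffix that marks possible overlap with other transcripts, and neither gene passed without such probe sets. The count for this group moved with the limit. It was 10 of 23 at a limit of 100, against 72.7% of all genes, and 1 of 23 at 2 times the limit, against 52.4%. Slc26a6 was the 1 that passed at the higher limit.

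Salt transporters of the loop and distal tubule were below the limit without exception, 0 of 4, against 61.0% of all genes above it. Slc12a1 (NKCC2), whose sequence is given above and which the thick ascending limb uses to take up sodium, potassium and chloride, gave 72.2 and 110.2. Slc12a3 (NCC), the thiazide-sensitive cotransporter of the distal convoluted tubule, gave 19.9 and 13.1. The sodium-proton exchangers Slc9a2 and Slc9a4 gave 75.0 and 13.3, and 118.1 and 68.3. This group stayed at 0 of 4 at every limit tried and with each choice of probe set.

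Of the 5 exchangers of intercalated cells 2 were above background. Slc4a1, the anion exchanger band 3 of red cells and of acid-secreting intercalated cells, gave 396.7 and 616.5, and 2 of its 3 probe sets passed. Erythroid markers were above background for 8 of 13 genes (61.5%), near the 61.0% of all genes. Their summed intensity, 64105 in replicate 1 and 58357 in replicate 2, came mostly from Hbb-y. Hbb-y, an embryonic globin, gave 55397 and 48789, Alas2, which starts haem synthesis in red cells, gave 366.4 and 519.6, and Ank1, the ankyrin that binds band 3, gave 340.9 and 330.5. Epb42, another partner of band 3, was not above background (10.8 and 11.4), nor was the erythroid factor Klf1 (132.4 and 173.5). The part of red cells in the Slc4a1 value was not tested. Slc26a7, an anion transporter of intercalated cells and stomach, gave 2005 and 3971 on 1 probe set and 64.4 and 195.0 on the other. Foxi1, the transcription factor of intercalated cells, gave 15.9 and 20.2, and the proton pump subunits Atp6v1b1 and Atp6v0a4, which those cells use, gave 14.8 and 69.0, and 168.7 and 176.7, so none of these was above background. Pendrin (Slc26a4) passed on replicate 2 only (122.6 and 258.3), Slc4a8 in replicate 1 only (219.1 and 136.7), and Slc4a9 on neither array (67.3 and 68.3).

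Transporters that most cells use reached a higher share than the tubule transporters did. Those of cell pH, of cell volume and of widely used solutes together reached 15 of 20 (75.0%), against 61.0% of all genes, a share that so few genes do not set apart. For cell volume 4 of 5 were above background. Slc12a2, the sodium-potassium-chloride cotransporter NKCC1 by which cells gain chloride and swell, gave 13612 in replicate 1 and 19422 in replicate 2. Its 3 probe sets all passed, but the others gave far less, 473.1 and 583.7, and 552.0 and 402.5. The potassium-chloride cotransporters, which work the other way, were above background with Slc12a2. Slc12a7 (KCC4) gave 4869 and 3444 on 1 of its 2 probe sets and 643.2 and 655.2 on the other, both above the limit. Slc12a4 (KCC1) gave 1304 and 1195. Slc12a9, a relative that binds cotransporters of this family, gave 908.8 and 719.6. Both its probe sets passed, the other at 296.5 and 742.7. Slc12a8 was the exception at 107.1 and 152.0.

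For cell pH 3 of 4 were above background. The anion exchanger Slc4a2 (AE2) gave 1998 and 1388 on its only probe set. Slc9a9, a sodium-proton exchanger of endosomes, gave 1580 and 2233, and Slc9a8, of the Golgi and surface, gave 470.3 and 309.0. Each of the exchangers Slc9a8 and Slc9a9 passed on 1 of 4 probe sets, so taking the median over probe sets instead, only Slc4a2 passed. Slc9a7, of the trans-Golgi network, passed on replicate 2 only (92.6 and 211.6).

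Of the widely used nutrient and solute carriers 8 of 11 were above background. Slc5a3 gave 10179 and 11224, and 2 of its 3 probe sets passed. The other that passed gave far less, 319.5 and 395.1, and the one that did not gave 140.4 and 68.6. Slc26a2, the sulfate transporter that cartilage needs, gave 4039 and 3740. Slc22a5, which brings in carnitine for the oxidation of fatty acids, gave 1802 and 1995, whereas Slc22a4, of the same gene cluster, gave 76.0 and 28.6. The lipocalin receptor Slc22a17 gave 1185 and 791.5, and the family members Slc22a15 and Slc22a23 gave 1290 and 1636, and 1167 and 977.2. Slc22a18, of an imprinted region, gave 310.4 and 211.7, and the vitamin transporter Slc5a6 gave 250.4 and 206.9, both close to the limit. The sulfate transporter Slc26a11 passed on replicate 2 only (184.4 and 265.0). Slc13a4, a sulfate transporter known from high endothelial venules, the vessels by which lymphocytes enter lymph nodes, gave 10.1 and 12.6 here. Of the sodium-calcium exchangers, Slc8a1 (NCX1) of heart and many other cells gave 1095 and 1053 on 1 of 4 probe sets, and Slc8a2 (17.9 and 15.8) and Slc8a3 (95.1 and 21.4), of brain and muscle, did not pass.

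Some members known mainly from other tissues were above background, 6 of 17 (35.3%), against 61.0% of all genes. Slc12a5, the KCC2 cotransporter of neurons, gave 5306 and 3516 on 1 probe set and 26.7 and 15.4 on the other. Slc9a5, a sodium-proton exchanger of brain, gave 999.8 and 612.2 on 1 of 2 probe sets, and Slc4a3, an anion exchanger of heart and brain, gave 322.7 and 507.2 on 1 of 2. Neural and Schwann cell markers were above background for 1 of 5 genes, Stmn2 at 350.0 and 448.6, with a summed intensity of 927 in replicate 1 and 1066 in replicate 2. The neuronal tubulin Tubb3 gave 32.3 and 10.3 and the catecholamine enzyme Th gave 176.1 and 145.3. The part of neural cells in these transporter values was not tested. Slc4a11, a transporter of corneal endothelium, gave 448.4 and 634.7 on 1 probe set and 109.1 and 106.4 on the other. The citrate transporter Slc13a5 of liver gave 405.4 and 372.1 on 1 of 2, and the other (228.4 and 167.2) passed in replicate 1 only. The phosphate cotransporter Slc34a2 of lung and gut gave 234.6 and 204.2. Slc34a2 was the member nearest to the limit from above, by 0.00 on the log2 scale in replicate 2, followed by Slc5a6 (0.02), Slc22a18 (0.05) and Slc13a3 (0.06). Nearest from below was the iodide transporter Slc5a5 (216.2 and 200.0), by -0.03. Below the limit on both arrays were Slc4a5, Slc4a10, the choline transporter Slc5a7, Slc22a14, Slc22a16, Slc22a21, Slc26a3 of colon, prestin (Slc26a5), Slc26a8 and Slc26a10. So were Slc22a22, Slc22a26, Slc22a27, Slc22a29 and Slc22a30, which were given no role here and ran from 2.34 to 72.8 in replicate 1 and from 15.1 to 122.0 in replicate 2.

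**Figure D2:**
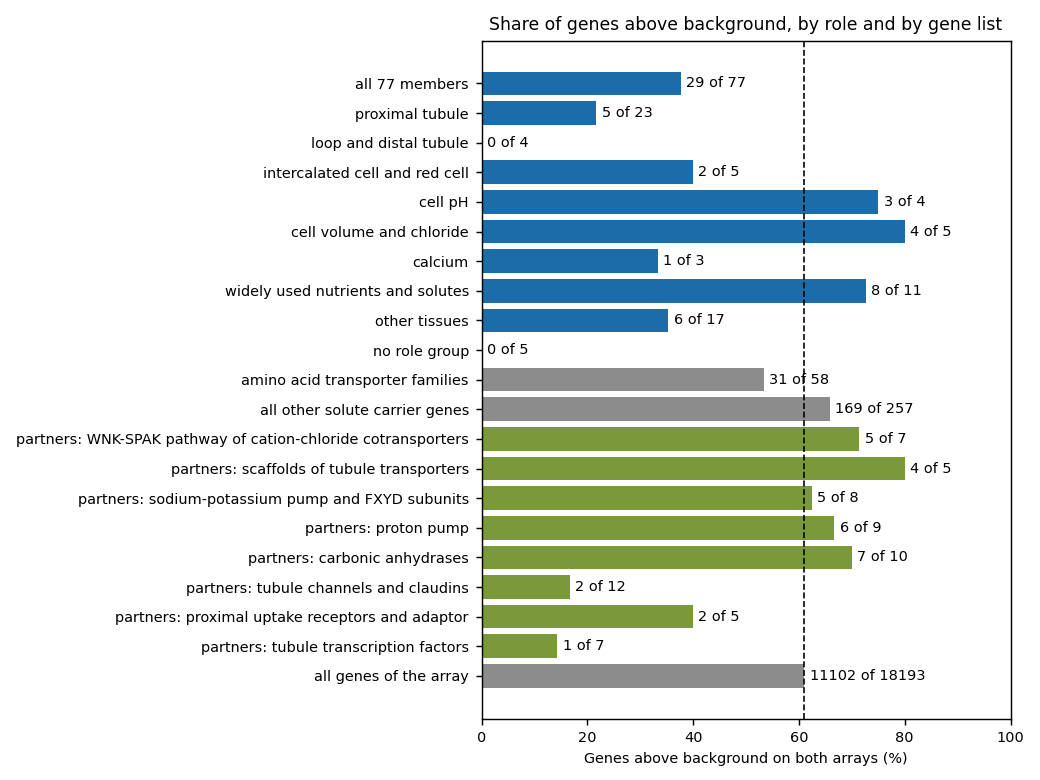
Percent of genes above background on both arrays (x axis) for the transporters by role (blue), for other solute carriers and all genes (grey) and for lists of partner genes (green), with counts at the bar ends and the share of all genes, 61.0%, dashed. Proximal tubule transporters reached 5 of 23 and those of cell volume 4 of 5.

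By family, the share above background was highest for the cation-chloride cotransporters of Slc12, 5 of 8 (62.5%), and for the bicarbonate transporters of Slc4, 5 of 9 (55.6%), both near the 61.0% of all genes. The organic ion carriers of Slc22, which hold the most members, reached 6 of 21, the sodium-solute cotransporters of Slc5 3 of 11 and the anion exchangers of Slc26 3 of 10. The sodium-proton exchangers of Slc9 reached 3 of 7, the sulfate and carboxylate carriers of Slc13 2 of 5, and Slc8 and Slc34 1 of 3 each.

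Different probe sets of a gene often gave different answers. Of the 40 members with several probe sets, 18 had some above and some not above the limit (45.0%), close to the 44.3% of all such genes. All probe sets passed for 3 members, Slc12a2, Slc12a7 and Slc12a9, and none for 19. The 18 are Slc4a1, Slc4a3, Slc4a4, Slc4a11, Slc5a3, Slc8a1, Slc9a5, Slc9a8, Slc9a9, Slc12a5, Slc13a3, Slc13a5, Slc22a5, Slc22a12, Slc22a15, Slc22a18, Slc26a2 and Slc26a7. The arrays read the end of the transcript, and the place of each probe set along its transcript was not analysed here.

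**Figure D3:**
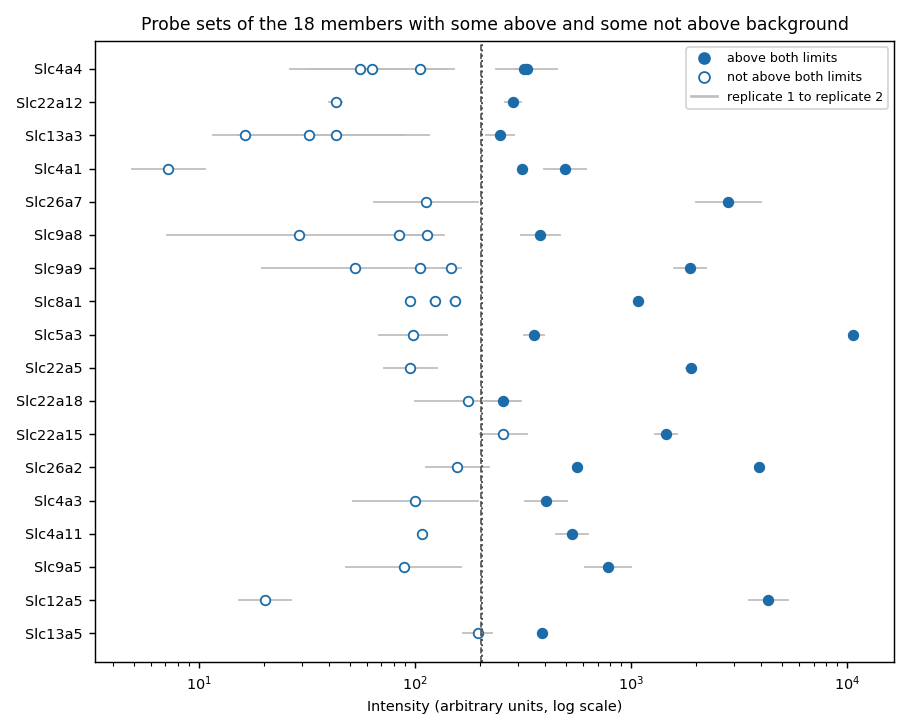
Probe sets of the 18 members with some above and some not above background, as the geometric mean of both arrays (points, x axis in arbitrary units, log scale) with a line between the arrays' values. Slc12a5 spans the range from 26.7 and 15.4 on 1 probe set to 5306 and 3516 on the other.

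The next question was how far the pools differed. Differences are given as log2 of replicate 1 minus replicate 2, after making the medians of the arrays over probe sets above background equal. The 29 members above background had a median of 0.16 with an SD of 0.48, against a median of 0.04 and an SD of 0.51 for all genes above background. They were higher in replicate 1 for 19 and in replicate 2 for 10, against 54.2% and 45.8% of all genes. None of the 29 differed by over 2-fold (0 of 29), against 4.83% of all genes, a difference that so few genes do not set apart. The largest differences toward replicate 1 were those of Slc9a5 (1.67-fold), Slc9a8 (1.56-fold) and Slc12a5 (1.55-fold). Toward replicate 2 the largest were Slc26a7 (1.93-fold), Slc4a4 (1.87-fold) and Slc4a3 (1.53-fold), each on the probe set that represents the gene. For Slc4a4 this direction held on that probe set alone, and the other 4, 1 of them above background, were higher in replicate 1. Renal stroma markers above background were higher in replicate 2 for 9 of 9 genes, with a median of -1.86, and their part in the value of Slc26a7 was not tested. The SD was 1.20 on the log2 scale among the 42 members on neither array, against 1.36 for all such genes, so the order of the arrays was not read for dim members. With 2 arrays no single difference has a replicate check.

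**Figure D4:**
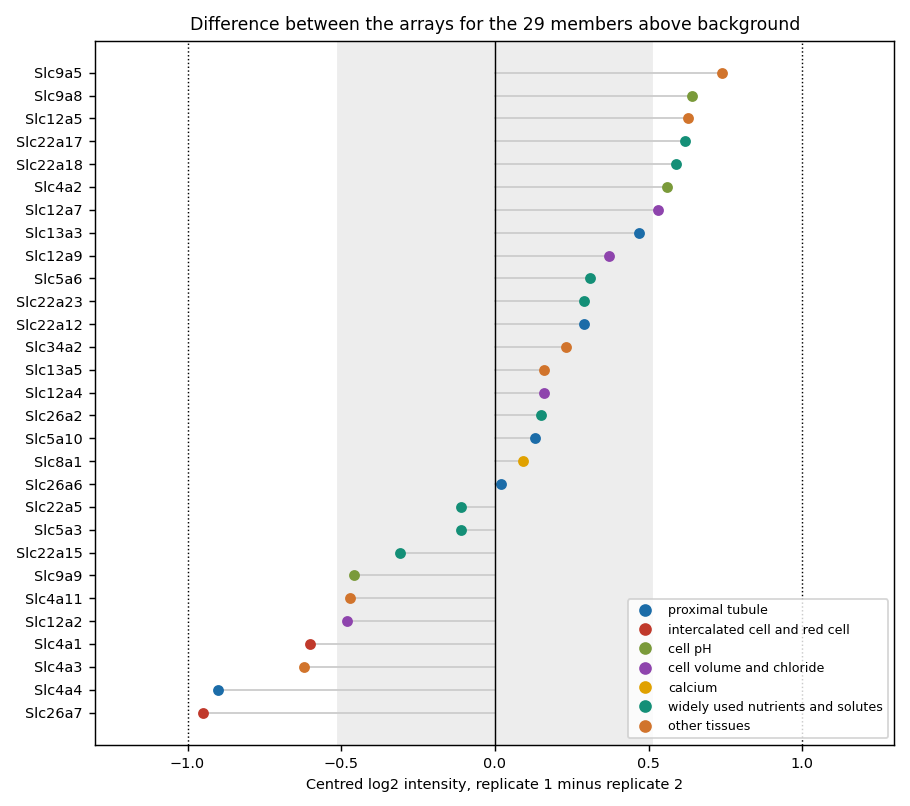
Centred log2 difference in intensity, replicate 1 minus replicate 2 (x axis), for the 29 transporters above background, coloured by role, with the SD of all genes above background, 0.51 either way, shaded and 2-fold dotted. Slc9a5 lies furthest toward replicate 1 at 0.74 and Slc26a7 furthest toward replicate 2 at -0.95.

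Genes that work with these transporters were counted in the same way, and 32 of 63 (50.8%) were above background, against 61.0% of all genes. The share was 71.4% for the first list that follows, 80.0% for the scaffolds, 62.5% for the sodium-potassium pump, 66.7% for the proton pump and 70.0% for the carbonic anhydrases, each over 10 genes or fewer. The WNK-SPAK pathway, which sets the activity of the cation-chloride cotransporters, passed for 5 of 7. Among these were the kinases Wnk1 at 37974 and 36707, Wnk4 at 389.3 and 422.1, Stk39 (SPAK) at 1986 and 2131 and Oxsr1 at 8570 and 7972. The other was Cul3, part of the ubiquitin ligase that degrades WNK kinases, at 12677 and 11950. Wnk2 passed on replicate 1 only (243.4 and 102.5) and Wnk3 on neither array (196.3 and 198.8). Of the scaffolds that hold transporters at the membrane 4 of 5 passed. The scaffolds Slc9a3r1 and Slc9a3r2, named for binding NHE3, gave 5299 and 6219, and 11300 and 6150. Ezr (2407 and 2376) and Pdzk1ip1 (605.1 and 431.0) passed as well. Pdzk1, a scaffold of the proximal tubule brush border, gave 106.6 and 41.2 and did not pass.

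Subunits of the sodium-potassium pump and its FXYD regulators passed for 5 of 8, and Atp1b1 differed by 7.03-fold between the arrays (687.5 and 4950), the largest difference in these lists among genes above background. Atp1b3 gave 19012 and 15780. Of the FXYD genes, Fxyd4 (212.5 and 235.4, near the limit), Fxyd5 (1617 and 1439) and Fxyd6 (1440 and 1592) passed. Fxyd2, the kidney regulator of the pump, was not above background (81.7 and 102.7), nor was Fxyd1 (9.36 and 19.3). The proton pump passed for 6 of 9, and the 2 subunits of intercalated cells were among the others. The carbonic anhydrase list, which includes enzymes that make the bicarbonate that Slc4 and Slc26 proteins carry, passed for 7 of 10. Car2, the cytosolic form shared by many cells, gave 5657 and 2428 and differed by 2.39-fold. Car12 (400.0 and 427.1) and Car15 (437.3 and 431.7) also passed, as did Car3, Car8, Car9 and Car13. Car14 passed on replicate 1 only (218.8 and 100.7). Car4, of the tubule surface, gave 52.6 and 84.9 and did not pass, nor did Car1 (120.0 and 11.8).

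The partner lists of tubule cells had lower shares above background on both arrays than the 61.0% of all genes. Tubule channels and claudins passed for 2 of 12, Clcn5 (5751 and 7999) and Trpm6 (441.1 and 402.2). The potassium channel Kcnj1 of the thick ascending limb gave 48.3 and 7.16, and Cldn16, of the same segment, gave 7.47 and 12.3. Another 4 of the 12 passed on replicate 2 only, the potassium channel Kcnj10 (95.7 and 311.5), the sodium channel subunits Scnn1a (61.8 and 220.4) and Scnn1b (187.0 and 345.8), and the claudin Cldn10 (133.2 and 205.3). Of the genes for uptake of filtered protein 2 of 5 passed, Dab2 (14837 and 19366), a cytosolic adaptor of megalin, and the immunoglobulin receptor Fcgrt (3616 and 5705), which other cells also use. Megalin (Lrp2, 196.9 and 163.4) and Amn (118.3 and 92.0) were not, and cubilin (Cubn, 285.2 and 197.0) passed on replicate 1 only. Tubule transcription factors passed for 1 of 7, Esrrg at 327.2 and 510.9, while Hnf4a gave 156.2 and 120.2, Hnf4g gave 66.5 and 74.5 and Pax8 gave 112.5 and 151.2.

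The last question was what the members above and below background share in sequence. The 24 members above background with a promoter window had a median of 17.8 CG in the 250 bases before the start, and the 38 not above background had a median of 4. All genes on the array showed a difference of the same kind, with a median of 16 for those above and 5 for those not above background, so the difference was not particular to the members. For genes with several windows the mean count was used. Slc4a1, Slc4a11, Slc12a2, Slc26a2 and Slc26a7 were above background but had no window. The comparison therefore leaves out Slc12a2, the member with the highest values. Of the sequences shown, Slc5a3 and Slc22a5 were above background and rich in CG, and Slc34a1 and Slc12a1 were not above it and poor in CG. Slc22a4 departed from this, with 26 CG and 76.0 and 28.6 on the arrays, and Slc22a18 departed the other way, with 0 CG and 310.4 and 211.7. The sequences shown do not separate the roles either. The proximal tubule genes Slc4a4 and Slc9a3 had 23.5 and 19 CG, and the widely used genes Slc22a17 and Slc13a4 had 8 and 5.

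Short motifs were searched on both strands of the same windows. The GC box GGGCGG was present for 70.8% of the members above background and 26.3% of those not above it, against 64.8% and 34.6% of all genes in the same classes, and 32.7% of all 32851 windows held it. The letters TATAAA were found for 0 of the 24 members above background and for 10 of the 38 others, against 7.77% and 15.0% of all genes. The letters CCGGAAG, a site of ETS factors that overlaps a CG, were found for 3 of the 24 and 1 of the 38, against 15.9% and 4.97% of all genes and 6.91% of all windows. A match describes the letters of the window and no binding was measured.

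**Figure D5:**
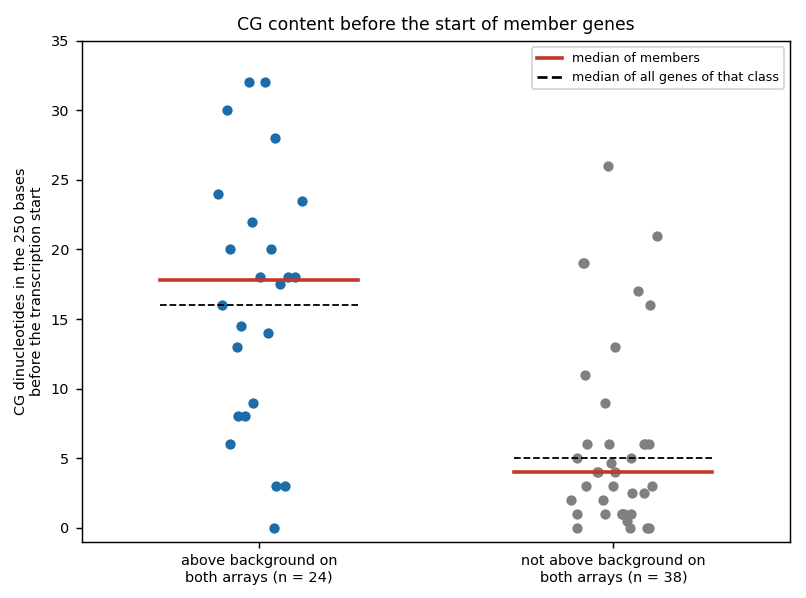
Number of CG dinucleotides in the 250 bases before the transcription start (y axis) of each member with a promoter window, for the 24 above background and the 38 not above it, with the median of the members (red) and of all genes of that class (dashed). The medians are 17.8 and 4 for the members, and 16 and 5 for all genes.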

How the data were processed

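Values are intensities as deposited, 1 per probe set and array, on a linear scale, from an Affymetrix mouse array that reads the 3' end. The authors' notes name GCOS, without a version, and both arrays have a mean of 1500.01 without the lowest and highest 2% of values, so they had been scaled before deposit. Detection calls were not used. In the paper's methods a different array and amplification appear, so these were not taken over. Genes came from the platform annotation (34945 of 45101 probe sets with 1 gene), and all 77 members were found in the RefSeq gene table of GRCm38.p6 with 0 symbols changed. The limit rests on 75 chemosensory receptor genes (olfactory, vomeronasal, taste) with 83 probe sets. Centring removed an offset of -0.03. The members and lists were chosen with earlier results of these data known. Roles came from general knowledge. Every member above background on either array, those with split probe sets, the first 4 of each role and the largest differences were named; further members, partners and markers were named after their values were seen. No test was possible with 1 group of 2 arrays, whose number limits the precision. Centring and the differences between arrays were checked on simulated data. The background calls were not checked on genes of known state. Python 3.11.15, numpy 2.4.6 and pandas 2.3.3 were used. The result of 1 further motif is not reported here, for a reason unrelated to its values.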

Additional observations from a re-analysis of the deposited data

How the results depend on the processing

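The share of the members above background was lower than that of all genes under each alternative. It was 40.3% against 63.4% at the 90th percentile of the sensory receptors, 31.2% against 56.7% at the 99th, 50.6% against 72.7% at an intensity of 100, and 23.4% against 52.4% at 2 times the limit, where 18 of 77 passed. Taking the median over probe sets, 20 of 77 passed, against 53.4% of all genes, and with probe sets without a suffix the share was 36.1% against 57.5%. Quantile normalization changed no call of a member. Each array alone gave 32 of 77. Of the 29 members above background, 14 stayed so under the 7 alternatives of limit, probe set and normalization, and the other 15 each lost the call under at least 1 of them or were not measured there. The median difference between arrays ran from 0.08 to 0.19. Members that differed by over 2-fold numbered 1 at a limit of 100 (Slc26a4, -1.01), 1 with the median of probe sets (Slc26a7, -1.26) and 16 of 77 when dim members were counted. Partner genes above background ran from 25 to 45 of 63 over the limits. The difference between the arrays needs both, so neither was left out for it.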

Other observations

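Several members lie next to each other in the gene table. Slc22a5, Slc22a21 and Slc22a4 are consecutive on chromosome 11, and of these Slc22a5 was above background (1802 and 1995), while Slc22a21 (51.9 and 144.8) and Slc22a4 (76.0 and 28.6) were not. On chromosome 19 the neighbours Slc22a8 (64.9 and 115.5) and Slc22a6 (51.7 and 87.7) were below the limit, as were Slc22a29 and Slc22a30 beside them and Slc22a19, Slc22a26 and Slc22a27. The pairs Slc9a4 and Slc9a2 on chromosome 1 and Slc22a14 and Slc22a13 on chromosome 9 were below it too. A probe set shared by Slc9a7 and 1 other gene, which entered no count, gave 156.7 and 232.7, above the limit in replicate 2 only, as did the probe set of Slc9a7 alone.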
